A study of Caenorhabditis elegans with 2 samples.

Results

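The final MEC-3 peaks outside promoters are 206 of 457 regions of the final ChIP-seq list (45.1%, exact 95% interval 40.45 to 49.8). They were chosen by 2 criteria. The region had to be in the final list, which the authors selected on signal and agreement between replicates. Its summit, the position of highest signal, had to lie outside the window from 1000 bp upstream to 500 bp downstream of the 5′ end of any protein-coding transcript. The samples were whole late embryos of the hermaphrodite Caenorhabditis elegans strain OP55, genotype unc-119(ed3) III; wgIs55, collected 4 h after synchronization by egg bleaching. The wgIs55 transgene carries MEC-3 with GFP and FLAG at its C terminus. Chromatin was sonicated and precipitated with an antibody against GFP, in 2 biological replicates that form the only group. The labels do not say what drives the transgene or in which cells the fusion protein was present, and no library without the fusion was used here.

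The LIM homeodomain protein MEC-3 works with the POU factor UNC-86 to give touch receptor neurons their identity, and it also acts in the PVD and FLP neurons. These are a small part of the cells of an embryo, so signal from whole animals cannot be assigned to them. Outside protein-coding promoters, a bound region can be a distal enhancer, an element in an intron, or the promoter of a gene that encodes no protein. Genes of tRNAs are transcribed by RNA polymerase III from promoter elements inside the gene, the A box and the B box, which the factor TFIIIC binds. Genes of snoRNAs, whose products guide modification of ribosomal RNA, often lie in introns of other genes in worms.

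The summit windows that represent the main kinds of region are given on the plus strand, 5′ to 3′, from the RefSeq copy of the WBcel235 genome, the same assembly as ce11. The first, V:12303517-12303717, belongs to the strongest of the 206 peaks and lies on single-copy sequence. Its capitals are the snoRNA gene C51F7.4, in an intron of frm-7. The second, X:13665465-13665665, is that of the strongest peak near a tRNA gene, and its capitals are the part of the tRNA-Leu gene C04A11.t1 inside the window. The third, V:19643115-19643315, is beside the snoRNA gene Y43F8C.22, which is on the minus strand and has its 5′ end inside the window. The fourth, IV:11026083-11026283, has no annotated tRNA, snoRNA, snRNA or rRNA gene within 500 bp, but its summit lies inside a gene of the annotation class ncRNA and 71 bp from a microRNA gene. In the last 2 the capitals are a match to the B box on the minus strand.
C51F7.4: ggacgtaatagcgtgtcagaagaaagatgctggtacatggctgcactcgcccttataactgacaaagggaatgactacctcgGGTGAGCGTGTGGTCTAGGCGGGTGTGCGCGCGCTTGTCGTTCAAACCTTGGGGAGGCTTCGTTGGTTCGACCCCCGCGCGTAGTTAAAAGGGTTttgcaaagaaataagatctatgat
C04A11.t1: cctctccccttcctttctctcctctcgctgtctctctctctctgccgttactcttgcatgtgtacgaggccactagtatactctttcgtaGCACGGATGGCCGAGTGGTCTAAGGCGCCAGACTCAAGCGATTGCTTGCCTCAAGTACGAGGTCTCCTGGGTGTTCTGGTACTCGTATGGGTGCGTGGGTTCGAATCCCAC
Y43F8C.22: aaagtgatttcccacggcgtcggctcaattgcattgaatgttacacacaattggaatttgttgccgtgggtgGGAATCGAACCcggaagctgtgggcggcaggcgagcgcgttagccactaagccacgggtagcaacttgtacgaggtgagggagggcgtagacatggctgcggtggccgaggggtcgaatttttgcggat
hrg-5 region: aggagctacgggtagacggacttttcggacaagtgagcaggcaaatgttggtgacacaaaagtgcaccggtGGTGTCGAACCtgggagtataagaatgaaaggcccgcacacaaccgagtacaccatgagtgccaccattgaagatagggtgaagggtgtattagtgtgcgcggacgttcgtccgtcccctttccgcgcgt

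Another 4 windows show a repeat, coding sequence and the site type of UNC-86 with MEC-3. The window V:12510025-12510225, 2824 bp downstream of the 5′ end of T28H10.2, is that of a strong multi-copy peak, and its capitals are bases covered by a 24-mer found elsewhere in the genome. Here and below, a second position within the same window also counts as elsewhere. The window IV:1769165-1769365 lies wholly in the second exon of the collagen gene col-108. In X:15945781-15945981 the capitals are coding sequence of mec-5. In IV:7573911-7574111, upstream of the snoRNA gene F32E10.10, the capitals are the motif AATGCAT.
T28H10.2 region: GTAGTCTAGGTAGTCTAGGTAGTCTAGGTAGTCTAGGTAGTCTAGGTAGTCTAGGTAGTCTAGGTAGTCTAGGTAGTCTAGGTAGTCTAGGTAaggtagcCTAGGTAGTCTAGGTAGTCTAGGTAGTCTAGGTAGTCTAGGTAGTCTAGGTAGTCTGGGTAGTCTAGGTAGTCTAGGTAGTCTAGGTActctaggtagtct
col-108: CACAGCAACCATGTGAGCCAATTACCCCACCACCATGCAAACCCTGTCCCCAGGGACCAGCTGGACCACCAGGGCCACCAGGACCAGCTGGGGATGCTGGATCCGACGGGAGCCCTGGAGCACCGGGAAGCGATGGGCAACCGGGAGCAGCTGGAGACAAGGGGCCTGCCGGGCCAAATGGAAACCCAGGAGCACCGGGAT
mec-5: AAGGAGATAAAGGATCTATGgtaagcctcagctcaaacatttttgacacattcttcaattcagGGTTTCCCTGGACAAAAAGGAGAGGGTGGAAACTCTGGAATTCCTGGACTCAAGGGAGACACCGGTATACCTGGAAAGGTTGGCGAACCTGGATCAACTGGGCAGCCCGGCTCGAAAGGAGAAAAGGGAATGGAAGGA
F32E10.10 region: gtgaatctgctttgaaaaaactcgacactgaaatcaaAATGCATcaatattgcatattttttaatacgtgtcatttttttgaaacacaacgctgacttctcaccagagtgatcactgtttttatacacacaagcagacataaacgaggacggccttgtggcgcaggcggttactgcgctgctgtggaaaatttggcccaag

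The pooled list held 18080 candidate regions outside promoters, of which 1.14% were in the final list. Below, the 206 peaks are set beside the 251 final peaks in promoters and beside the 17779 candidates outside promoters that overlap no final peak, called the other candidates. The authors' name for the pooled list is peaks and background, given as input for the selection of the final list. The other candidates thus reach down to very weak regions and can include background, and they are not a set of weaker peaks. Shares carry exact Clopper-Pearson 95% intervals, which cover counting error only. No test was made between these sets, since signal chose their members and regions of 1 list are not replicates. The number of reads is unknown.

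Of the 206 summits, 75 (36.4%, 29.8 to 43.4) lay in introns, 61 (29.6%, 23.5 to 36.4) in coding exons, 52 (25.2%, 19.5 to 31.7) in intergenic sequence and 18 (8.74%, 5.26 to 13.5) within 500 bp past the 3′ end of a gene. The other candidates had 32.2% in introns, 35.5% in coding exons, 25.7% in intergenic sequence and 3.57% at gene ends. Untranslated and other non-coding exons held 0 of the 206 (0 to 1.77%) and 2.99% of the other candidates. The share at gene ends was thus above that of the other candidates by more than counting error, and the shares in introns, coding exons and intergenic sequence were not. Of the 18 gene-end summits, 5 were within 500 bp of a snoRNA gene, 4 within 500 bp of a tRNA gene and 4 on multi-copy sequence. Only 5 were in none of these classes, so the higher share at gene ends was not seen apart from them. In the upper part of the final list by signal, the 80 peaks outside promoters had 45% in introns and 12.5% in coding exons.

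**Figure D1:**
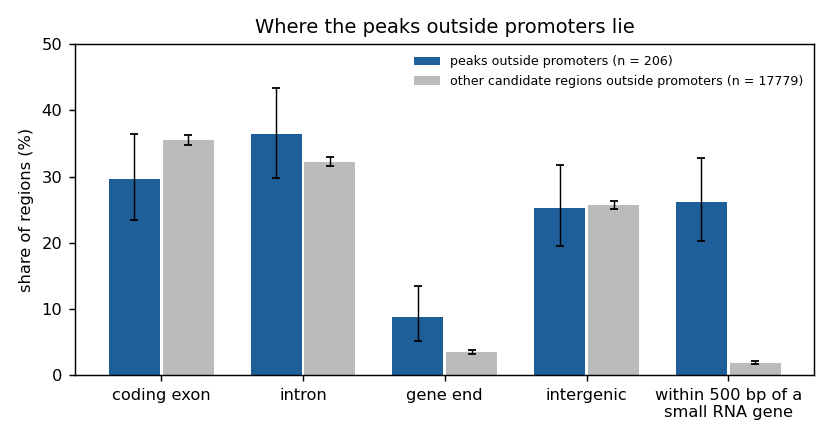
Bars give the percentage of regions in each place, for the 206 final peaks outside promoters and for the 17779 other candidate regions outside promoters, with exact 95% intervals for counting error. The bars are close in the 3 large places, while within 500 bp of a small RNA gene (tRNA, snoRNA, snRNA or rRNA) the values are 26.2% and 1.89%, a class that crosses the places.

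The distance to the nearest protein-coding 5′ end ran from 503 to 11480 bp with a median of 2017 bp, against 2011 bp for the other candidates. The summit was downstream of that 5′ end in 136 of the 206 (66.0%), against 65.5%. In all, 26 of the 206 (12.6%, against 11.8%) were over 5000 bp away. By distance and side, the 206 peaks were therefore close to the candidates they were drawn from. The farthest was an intergenic peak at III:8865426-8865869 (signal 78.3), 11480 bp from K01F9.2. The next were near T24D5.1 (10981 bp, signal 98.1, inside a tRNA gene), in a coding exon of attf-6 (10035 bp, 87.7), near F30H5.3 (9444 bp, 93.5, by a snoRNA gene) and in a coding exon of xrn-1 (9120 bp, 78.1), which encodes an exoribonuclease.

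The window edge passed close to some regions. Just outside it were peaks in introns of twk-5, a potassium channel gene (3 bp past the window, signal 128), of Y43F8C.7 (24 bp, 156) and of clec-148, a C-type lectin gene (28 bp, 88.5). Just inside it were the final peaks of pot-3 (0 bp, 86.9), ulp-4 (7 bp, 87.8) and M01F1.9 (11 bp, 480). In signal, the members just inside the limit of the final list were at col-63 (77.8), spop-1 (77.7), lin-1 (77.7), sca-1 (77.6) and C02B4.3 (77.4). The highest other candidates were at arrd-15 (77.2), D2096.7 (77.1), W08G11.3 (77.1), hmt-1 (77.0) and lfi-1 (76.9), so the step in signal at this limit is small.

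The 136 peaks inside protein-coding genes lay in 133 genes, and for 34 of them the host was not the gene of the nearest 5′ end. The genes that hosted 2 peaks were 5: col-99, dhc-4, unc-33, vab-10 and xrn-1. In col-99, a collagen gene, 1 peak was in a coding exon (signal 85.5) and the other beside a tRNA gene in an intron (108). In unc-33, a gene needed for axon outgrowth, both were in coding exons (79.1 and 77.9). The weaker unc-33 peak was within 500 bp of a tRNA gene, M57.t1, and the stronger had ranks 7311 and 214 in replicates 1 and 2. In vab-10, which encodes a large linker of the cytoskeleton, 1 was in a coding exon (89.8) and 1 in an intron (87.1). The peaks of dhc-4, a dynein heavy chain gene (143 and 91.1), overlap, share the same region in each replicate list and lie by 1 snRNA gene, R07E5.16. They are thus not separate observations.

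Signal ran from 77.4 to 328 with a median of 86.9, against 95.6 for the promoter peaks, and the final list holds 4 of the 206 among its 20 strongest regions and 25 among its 100 strongest. Signal values are the authors' own and were compared only within a list. Of the 206, 37 were below 80 and 47 above 100. The strongest, V:12303498-12303736 on the snoRNA gene C51F7.4 in an intron of frm-7, had signal 328 in the final list, rank 4 in replicate 1 (signal 156) and rank 4 in replicate 2 (177). The second, I:933357-933593, lay 4965 bp upstream of nas-30, an astacin protease gene, on multi-copy sequence (signal 286, ranks 5 and 6). The third was the repeat region near T28H10.2 (signal 275, ranks 8 and 10), and the fourth lay on the snoRNA gene ZK994.7, within the peroxidasin gene pxn-1 (signal 251, ranks 6 and 20). These 4 stood apart: the fifth, in an intron of W05H12.1, had signal 175 and ranks 17 and 58.

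**Figure D2:**
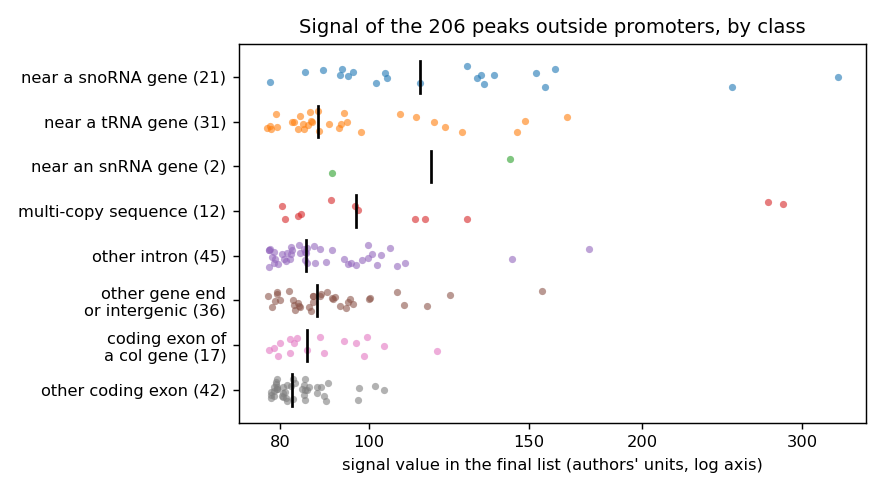
Each point is 1 of the 206 peaks, at its signal value in the final list on a log axis, by class. The bars are class medians, which run from 82.4 for the 42 other coding exon peaks to 114 for the 21 peaks near a snoRNA gene and 117 for the 2 overlapping peaks near an snRNA gene.

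Small structural RNA genes (tRNA, snoRNA, snRNA or rRNA) were within 500 bp of 54 of the 206 summits (26.2%, 20.3 to 32.8), against 9.16% of the promoter peaks and 1.89% of the other candidates. tRNA genes accounted for 31, snoRNA genes for 21, snRNA genes for 2 and rRNA genes for 0. Among the 75 intron peaks, 28 (37.3%, 26.4 to 49.3) were near such a gene, against 2.20% of the other intron candidates. In the upper part of the final list by signal the share was 40%. Peaks near a microRNA gene numbered 4 (1.94% against 0.433%). Summits inside a gene of the annotation class ncRNA numbered 30 (14.6%, against 10.4% of promoter peaks and 2.95% of the other candidates). The 30 are not separate from the 54, since many of the 30 also lie at a tRNA or snoRNA gene. Examples are the tRNA genes sup-5 and C02B4.t2 and the snoRNA genes C10C6.8 and H09I01.2. With all annotated transcripts, 98 of the 206 (47.6%) fell in the same window around the 5′ end of a transcript not annotated as protein-coding. Among the other candidates the share was 19.4%.

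The 21 peaks near snoRNA genes had a median signal of 114, the highest among classes of more than 2 peaks, and 17 of them overlapped the 457 strongest regions of both replicates. Their summits lay at a median of -29 bp from the 5′ end of the snoRNA gene, 14 of 21 upstream and 6 of 21 inside it. Introns of protein-coding genes held 14, with a median host intron length of 311.5 bp, and the host was on the same strand in 10 of the 14. The X chromosome held 0 of the 21 (0 to 16.1%), while 33 of 346 annotated snoRNA genes (9.54%) are on X. In 19 of the 21 windows no 24-mer occurred elsewhere in the genome.

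Beyond C51F7.4 and ZK994.7, the strongest of these were T06C12.16 past the end of a gene near str-56, a chemoreceptor gene (signal 160, replicate ranks 13 and 133), Y43F8C.22 in an intron of Y43F8C.7 (156, 46 and 44) and W03C9.9 near W03C9.1 (153, 39 and 59). T19B4.8, 4850 bp downstream of the 5′ end of pamn-1, a peptide amidation enzyme gene, had signal 137 and ranks 56 and 99. T03F7.8 in cutl-18, a cuticlin-like gene, had 134 (32 and 128), and C04G6.12 in mpk-2, a MAP kinase gene, 133 (23 and 120). ZK484.9 in haf-9, an ABC transporter gene, had 132 (75 and 116), and B0334.12 in twk-5 had 128 (34 and 173). The hosts thus encode proteins of unrelated kinds, and each of these regions was high in both replicates.

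Several snoRNA peaks carried sequence typical of tRNA genes. The B box, in the form used here, occurred within 100 bp of the summit on either strand in 4 of 21 snoRNA peaks (19.05%, 5.45 to 41.9), against 2.11% of 95 other candidates near a snoRNA gene. A shorter form without the first and last letter, added after the values were seen, occurred in 9 of 21 (42.9%, 21.8 to 66.0), against 4.21%. In all 9 the match was on the strand of the snoRNA gene. In 8 its middle was upstream of the annotated 5′ end, by 1 to 23 bp, and at C51F7.4 it was inside the gene, 69 bp from the 5′ end. Counted over genes, 17 of 346 annotated snoRNA genes (4.91%) had the shorter form between 40 bp upstream and 10 bp inside their 5′ end, on their own strand. This was so for 9 of the 22 with a peak outside promoters within 500 bp (40.9%, 20.7 to 63.6), for 4 of the 86 with another candidate outside promoters (4.65%) and for 2 of the 162 with no candidate (1.23%). The snoRNA genes with a promoter peak had it in 1 of 12. Like the shorter form, the window of 40 bp upstream to 10 bp inside was not planned before the values were seen. It brackets the positions of 1 to 23 bp found in these same peaks, so the shares by gene are a description only. The match at C51F7.4 lies outside that window, so the 9 genes are not the same set as the 9 peaks.

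**Figure D3:**
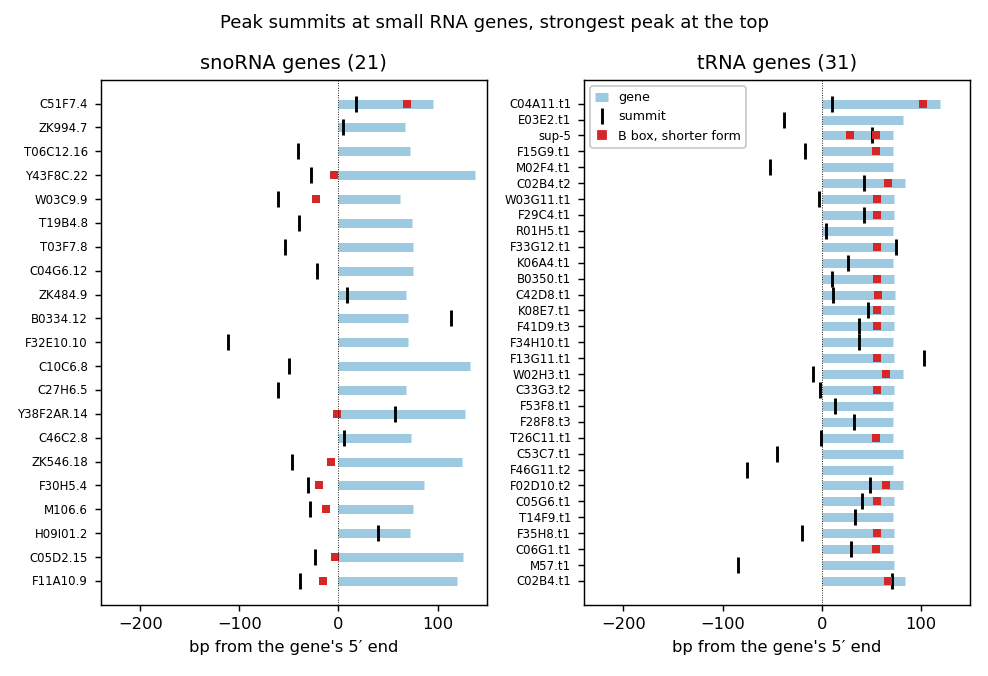
Summits (black ticks) and matches to the shorter form of the B box on the gene's strand (red squares) are placed by distance in bp from the 5′ end of the snoRNA or tRNA gene (blue bar), with the strongest peak at the top. In the tRNA genes the match lies inside the gene, and in 8 of the 9 snoRNA genes with a match it lies just upstream of the annotated 5′ end.

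The 31 peaks near tRNA genes had a median signal of 88.1, and 13 of them overlapped the strongest regions of both replicates. The summit was inside the tRNA gene in 18 of 31 (58.1%) and upstream of it in 11. Over all 31, the median summit position was 13 bp downstream of the 5′ end of the tRNA gene. Chromosome X held 19 of 31 (61.3%, 42.2 to 78.2), while 276 of 612 annotated tRNA genes (45.1%) are on X, a value within that interval. The tRNA genes were of 17 kinds by the amino acid they carry, with 4 each for arginine and lysine and 3 each for alanine, isoleucine and serine. The B box was within 100 bp of the summit in 17 of 31 (54.8%, 36.03 to 72.7), against 36.5% of 222 other candidates near a tRNA gene. The shorter form occurred in 20 of 31, in each case inside the gene and on its strand.

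The strongest of them were C04A11.t1 (signal 165, replicate ranks 12 and 101), E03E2.t1 in an intron of cat-1, which encodes the vesicular monoamine transporter (148.5, ranks 50 and 60), and sup-5, a tRNA-Trp gene known from suppressor mutations, in an intron of fli-1 (146, rank 30 in replicate 1 and signal 69.2 in replicate 2). F15G9.t1, in an intron of the hemicentin gene him-4, had signal 127 and ranks 44 and 166. A median of 33.1% of the 24-mers in these windows occur elsewhere in the genome, since tRNA genes are members of gene families, so reads from copies of a tRNA gene could have been counted at one of them. The sources used here do not say how such reads were placed, and their part in these values was not tested.

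Over the genome, 36 of 612 tRNA genes (5.88%) and 22 of 346 snoRNA genes (6.36%) had one of the 206 peaks within 500 bp, while 42.5% and 31.2% had any candidate outside promoters. Away from tRNA, snoRNA, snRNA and rRNA genes the B box was in 1 of 152 peaks and in 0.447% of 17443 other candidates. That peak, IV:11025961-11026404, lay past the 3′ end of a gene, 3002 bp downstream of the 5′ end of hrg-5, a heme transporter gene. Its summit was inside a gene of the annotation class ncRNA and 71 bp from a microRNA gene, and it is 1 of the 4 peaks near a microRNA gene. It had signal 155, ranks 48 and 54 in the replicates, and no 24-mer found elsewhere.

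The GC content of the summit windows was higher than in either comparison set. The median was 51.7% over the 206 peaks, 45.3% over the promoter peaks and 42.8% over the other candidates, and 60.7% of the 206 (53.7 to 67.4), 29.9% of promoter peaks and 16.7% of other candidates were above 50%. Of the candidates outside promoters with at most 35% GC, 0.0669% were final peaks. The share was 1.33% from over 45 to 50%, 2.76% from over 50 to 55%, and 6.60% above 55%. Within coding exons it went from 0.690% to 1.35% and 6.03% over the last 3 of these groups, and within introns from 2.21% to 5.64% and 7.80%. Across regions outside promoters, Spearman's rho between GC and signal was 0.336 in the replicate 1 list (n = 19668) and 0.313 in the replicate 2 list (n = 14449), as a description of regions from the same libraries. Among the 206 peaks alone it was -0.28. The part of GC content in the signal of these libraries was not tested.

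**Figure D4:**
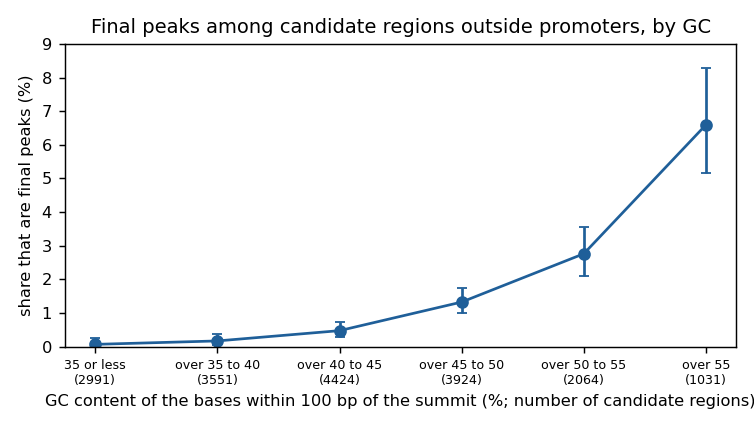
Points give the percentage of candidate regions outside promoters that are final peaks, in groups of rising GC content of the summit window, with exact 95% intervals for counting error and the number of candidates under each group. The share goes from 0.0669% in the lowest group to 6.60% in the highest.

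In coding exons, 17 of 61 peaks (27.9%, 17.1 to 40.8) lay in col genes, which encode collagens, most of them of the cuticle, against 113 of 6318 other coding exon candidates (1.79%). The col genes were taken as a set after their values were seen. These 17 summits lay at a median of 733 bp from the nearest protein-coding 5′ end (quartiles 665 and 851), against 2017 bp over the 206. The promoter window ends 500 bp downstream, so most of them were only a short way past its edge. Among genes that host or lie nearest a candidate outside promoters, 2.5% had one of the 206 peaks, and among the 114 col genes of that kind 21 did (18.4%). The 21 include col-181, col-94, col-95 and col-76, which only lie nearest a peak. Those peaks were at a tRNA gene, in dhc-4, in an intron of pqn-84 and in a coding exon of qua-1. The strongest of the 17 coding exon peaks was in the second exon of col-108 (signal 118.9, ranks 67 and 196 in the replicates). It was followed by col-52 (103.995, 153 and 203), col-60 (99.6, 224 and 217) and col-140 (98.8, 222 and 276), and the weakest was col-63 (77.8, 2172 and 285). Collagen coding sequence, with its glycine and proline codons, is rich in GC, and these 17 windows had a median of 60.7% against 54.5% in the other 44 coding exon peaks. The col set was taken by gene name, so the other 44 are not free of collagens. They include peaks in mec-5 and in ram-2, whose product is a cuticle collagen (65.7% GC). At a GC content above 55%, 14 of 91 col coding exon candidates were final peaks (15.4%, 8.67 to 24.5) and 21 of 489 others (4.29%, 2.68 to 6.49). From over 50 to 55%, the counts were 3 of 26 (11.5%) and 11 of 1011 (1.09%). The 17 col windows held a median of 3.93% of 24-mers found elsewhere, and 7 of the 17 peaks overlapped the strongest regions of both replicates.

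The 44 coding exon peaks outside col genes include 42 that are not near a tRNA or snRNA gene, with a median signal of 82.4, the lowest of the classes. Of these 42, 8 overlapped the strongest regions of both replicates. The exon values that follow cover all coding exon peaks, col genes included. Coding exons with a peak had a median length of 740.5 bp over the 58 with a single assigned exon, against 432 bp. Of the 58, 16 (27.6%, 16.7 to 40.9) were the last exon, against 16.1%. The 16 include peaks in col-108, col-140, col-54, col-120, col-176, col-133, col-96, col-77, col-139 and col-81. Exon length and last-exon share were not computed without col genes. Introns with a peak had a median length of 700 bp, against 913 bp, and 8 of 73 were the first intron (10.96%, against 16.4%). The strongest intron peaks away from small RNA genes were in W05H12.1 and in ints-8, which encodes a subunit of the Integrator complex (signal 144, ranks 85 and 42).

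Multi-copy sequence, where over 50% of the 24-mers within 100 bp of the summit occur elsewhere, held 12 of the 206 peaks (5.83%, 3.05 to 9.95), against 3.98% of promoter peaks and 3.14% of the other candidates. They include the peaks near nas-30 and T28H10.2 and one near Y50D4A.6 (signal 128, ranks 92 and 89). A pair near klp-7, a kinesin gene, share the same region in each replicate list (signals 115.3 and 84.3, ranks 330 and 105) and are not separate observations. The window near T28H10.2 printed above is a run of a short tandem repeat, so its 24-mers recur within the window itself. Local repeats and copies at distant places were not told apart in this class. By contrast, 7.77% of the 206 windows were over 50% soft-masked in the RefSeq genome, against 20.7% of promoter peaks and 15.2% of the other candidates.

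Of the listed genes of the touch receptor neurons, 21 in all, 15 host or lie nearest a candidate outside promoters and 2 had one of the 206 peaks. mec-5 encodes a collagen of the extracellular matrix around the touch receptor neurons and is made by the hypodermis. Its peak, X:15945659-15946102, lay in exon 4 of 7, 1872 bp downstream of its 5′ end, with signal 79.3 and ranks 423 and 612. lin-32 encodes a proneural factor of the Atonal family, and the peak 2894 bp downstream of its 5′ end, in intergenic sequence with signal 79.3 and ranks 1011 and 371, had its summit inside the tRNA gene T14F9.t1. Both are near the limit of the final list, and neither overlapped the strongest regions of both replicates. Against the 2.5% over all such genes, 2 of 15 rests on too few genes to be read as a difference.

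The pan-neuronal list had peaks at 2 of 13 genes, against the 2.5% over all such genes. unc-104, a kinesin gene of synaptic vesicle transport, had one in an intron on multi-copy sequence (signal 81.0, ranks 564 and 703). unc-31, a gene of dense core vesicle release, had one 2223 bp upstream, in intergenic sequence (79.3, ranks 424 and 1239). The genes of PVD and FLP neurons had 0 of 6, the list of neuronal and patterning homeobox genes 0 of 20, the body wall muscle list 0 of 21, and the hypodermis and intestine list 0 of 11. Each of these lists, the pan-neuronal one included, holds too few genes for its count to be read as a difference from 2.5%. Homeobox genes outside that list, chosen after their values were seen, did have peaks: ceh-9 in an intron (signal 77.8, ranks 865 and 547), Y56A3A.7, which encodes a cut-like protein, in an intron (85.4, ranks 89 and 1218), and unc-39, 6266 bp upstream of its 5′ end (93.1, ranks 151 and 403). Likewise chosen after its values were seen, ldb-1, which encodes a cofactor that binds LIM domain proteins, had a peak in an intron (77.9, ranks 407 and 423).

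The summit windows were searched for motifs on each strand, and a match is a description of letters only. AATGCAT, the site type of UNC-86 with MEC-3, was in 6 of 206 windows (2.91%, 1.08 to 6.23), 1.99% of promoter peaks and 2.54% of the other candidates, so the 3 shares lie within counting error. Within 50 bp of the summit it was in 0 of the 206. The 6 windows were near F32E10.10, in col-140, in Y56A3A.7, in abu-14, near unc-31 and near C02B4.3, with signals from 77.4 to 114. The homeodomain core TAATTA was in 3 of 206 (1.46%, 0.301 to 4.20), 5.58% of promoter peaks and 5.92% of other candidates. It is made of A and T only, and the windows differ in GC as given above. GAGAGA was in 56 (27.2%, 21.2 to 33.8), 25.9% and 14.5%, and within 50 bp of the summit in 12.6% of the 206. CACGTG was in 15 (7.28%), 6.37% and 4.68%, and TGACGTCA in 0 (0 to 1.77%), 0% and 1.39%. The B box was in 22 (10.7%), 2.79% and 0.906%, and 17 of those 22 peaks were near a tRNA gene. Within 50 bp of the summit the B box was in 5.34% of the 206.

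Both replicates ranked the strongest of the 206 high, and most of the rest were high in 1 replicate. Of the 206, 75 (36.4%, 29.8 to 43.4) overlapped the 457 strongest regions of both replicates, against 0.0225% of the other candidates, a contrast built into the final list. Replicate 1 alone accounted for 60 (29.1%), replicate 2 alone for 50 (24.3%) and neither for 21 (10.2%). The promoter peaks had 43.8%, 12.7%, 36.7% and 6.77%. Regions high in replicate 1 alone thus made up a larger share of the 206 than of the promoter peaks, with intervals of 23.02 to 35.8% and 8.89 to 17.5%. All 206 overlapped a region in each replicate list. Over the 206, Spearman's rho between the ranks in the replicates was 0.0227, a value that the choice of the final list also affects. In 4 groups of falling signal, of 51 or 52 peaks each, those in both tops numbered 47, 21, 5 and 2, those in coding exons 6, 13, 17 and 25, and those near a small RNA gene 23, 14, 11 and 6. The ranks most unequal toward replicate 2 (6542 in replicate 1 and 96 in replicate 2) were past the 3′ end of vab-19. There the nearest 5′ end is that of pqn-42. Those most unequal toward replicate 1 were in a coding exon of qua-1, a hedgehog-related gene (66 and 4306).

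**Figure D5:**
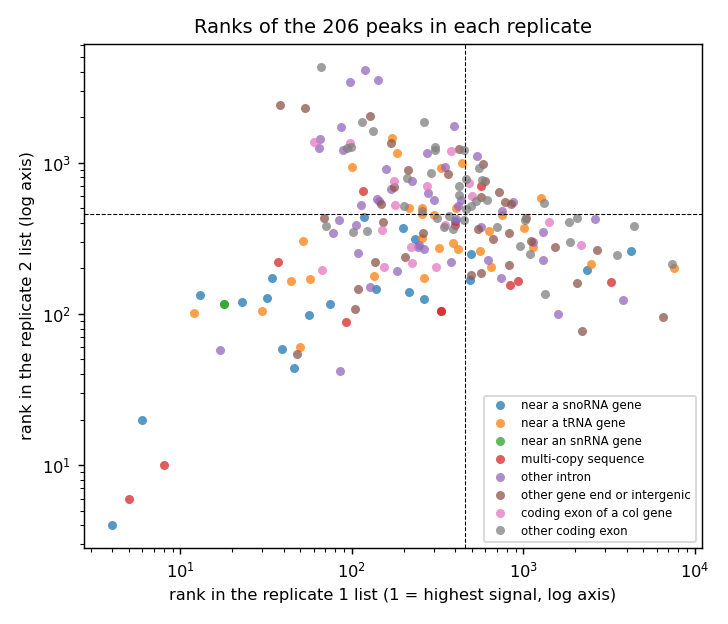
Each point is 1 of the 206 peaks, at its rank in the replicate 1 and replicate 2 lists on log axes, where 1 is the highest signal, colored by class. Dashed lines mark rank 457. The strongest regions of both replicates lie at the lower left, and a band of regions high in only 1 replicate lies along both lines.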

How the data were processed

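The authors' deposited ce11 region lists were used: 1 per replicate, 1 from both replicates pooled, and the final list. Per the labels, both ce11 and ce10 lists exist, and the ce10 lists were not used. The deposited lists give a signal value per region and a −log10 q-value, which was not used for any choice. The sources used here name no aligner, peak caller, threshold or signal scale. A control file named in the deposited file list was not used here.

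Summits were placed on the Ensembl release 115 annotation of WBcel235, in the order coding exon, other exon, intron, gene end, intergenic. RefSeq gave sequence, tRNA kinds and gene names. Python 3.11.15, pandas 2.3.3, NumPy 2.4.6, SciPy 1.17.1 and matplotlib 3.10.9 were used, and the 24-mer search was tested on simulated data. The members and lists were chosen with earlier results of these data known. Named genes are those of the 20 strongest members, hosts of 2 members, the 10 strongest near small RNA genes, the edges of each limit, the 5 farthest members, listed genes and the most unequal ranks. Others named were chosen after their values were seen. Alternatives were other windows, the upper part of the list, single replicates, other limits and motif windows.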

Additional observations from a re-analysis of the deposited data

How the results depend on the processing

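Of the alternative values computed for the counts, shares and the median distance, 50 stayed within counting error of the reported value or within 1.5 times the count, and 21 moved. The share of final peaks outside promoters was 53.8% with the window from 500 bp upstream, 36.1% from 2000 bp and 35.1% in the upper part of the list by signal, and 36.5 to 53.8% with the strongest regions of a single replicate. Their number was 80 in that upper part, and 108 with the 5′ ends of all annotated transcripts. In the upper part, 45% were in introns, 12.5% in coding exons, 42.5% outside protein-coding genes, 40% near a small RNA gene and 71.25% in both tops. The share near a small RNA gene was 18.3 to 28.1% with single replicates. The multi-copy share was 2.91% with 36-mers and 19.4% with a limit of 25%. With the top 1000 regions, 69.9% were in both tops. Of these values, 13 are motif shares, of which 5 moved: within 50 bp of the summit AATGCAT was in 0% of the 206, GAGAGA in 12.6% and the B box in 5.34%, and within 200 bp GAGAGA was in 39.8% and CACGTG in 12.1%. The share of members near a small RNA gene without multi-copy regions was 27.8%. No paired analysis was possible because the study has 1 group. The depth is unknown, so weak regions cannot be read as unbound.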
